A study of Homo sapiens with 6 samples.

Results

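The 10 genes described here encode folliculin and its partners FNIP1 and FNIP2, the GTPases RRAGC and RRAGD, the transcription factors TFEB, TFE3 and MITF, and the amino acid sensors SESN2 and CASTOR1. They are 10 of the 17687 named genes on the array. They were chosen by gene name from this pathway with earlier group differences of these data in view, and the probe set of each gene was to be selected on its mean log2 level over the 6 arrays. Every one of the 10 genes had a single probe set, so the level decided nothing among them. The members' differences below are therefore descriptions with the statistics of a fit over the whole array, and their number is not evidence about the pathway.

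RNA was measured on 6 arrays of A431, a line from a human epidermoid carcinoma that is known for its abundant receptor for epidermal growth factor (EGF). All the cells were grown in E-MEM with 10% fetal bovine serum and then starved for 24 h. The EGF plus gefitinib arrays (n = 2) came from cells given 100 ng/ml EGF and 10 µM gefitinib, an inhibitor of the receptor's kinase. The EGF arrays (n = 2) came from cells given 100 ng/ml EGF alone, and the control arrays (n = 2) from untreated cells. The labels give 1 harvest time, 30 min, and leave the moment of gefitinib addition unstated. No group analysed here received gefitinib without EGF, and all arrays are of 1 cell line. The arrays of a group are labelled biological replicates, but no label names a separate culture for each, so the spread behind every p-value is that between these samples and may be technical.

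Folliculin, the product of FLCN, works in a complex with FNIP1 or FNIP2 as a GTPase-activating protein for the Rag GTPases RagC (RRAGC) and RagD (RRAGD). Rag heterodimers on the lysosome recruit the kinase mTORC1 when amino acids are plentiful, and they also bring TFEB, TFE3 and MITF to it for phosphorylation, which keeps these factors in the cytosol. When amino acids are short, the factors enter the nucleus and bind CACGTG-containing elements in genes of lysosomes and autophagy, and the folliculin and Rag genes are themselves known targets of this family. SESN2 binds leucine and CASTOR1 binds arginine, and both act on the GATOR complexes upstream of the Rag GTPases. Much of this control acts on proteins and their place in the cell, which an RNA array does not measure.

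The start of FNIP1 and of RRAGC held the E-box CACGTG, the palindromic hexamer at the centre of the elements that these factors bind. Of the 10 genes, 9 had promoter windows in the RefSeq table used (GRCh38.p14, 250 bases before to 50 after each start), 14 windows in all. CACGTG was found in 2 of the 14 windows, against 7.26% of all 35116 windows in the table. FNIP1 held it at 2 places, beginning at −175 and −94 counted in bases from the start, and RRAGC at 1 place, beginning at −112. The longer TCACGTGA, the core of the CLEAR element, which contains the E-box, was in none of the 14 windows and in 0.98% of all windows. The FOXO site GTAAACA (3.42% of all windows) and the amino acid response element TGATGCAAT (0.236%) were also in none of the 14, with both strands searched. A match of letters is no evidence of binding, and the lack of one says only that these letters are not in this window. The 250 bases before the start are shown, read on the gene's own strand with CACGTG in capitals, for the 3 folliculin and Rag genes that differed most between the groups. They are those of FNIP1 (chr5:131797018-131797267, minus strand), RRAGC (chr1:38859773-38860022, minus strand) and FNIP2 (chr4:158768776-158769025, plus strand, the upstream of its 2 windows).
FNIP1: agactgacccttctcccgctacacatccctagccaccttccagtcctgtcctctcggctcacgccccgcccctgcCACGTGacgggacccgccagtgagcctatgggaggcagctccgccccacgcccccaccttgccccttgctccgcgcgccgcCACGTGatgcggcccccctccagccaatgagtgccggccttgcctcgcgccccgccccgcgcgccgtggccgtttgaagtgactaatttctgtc
RRAGC: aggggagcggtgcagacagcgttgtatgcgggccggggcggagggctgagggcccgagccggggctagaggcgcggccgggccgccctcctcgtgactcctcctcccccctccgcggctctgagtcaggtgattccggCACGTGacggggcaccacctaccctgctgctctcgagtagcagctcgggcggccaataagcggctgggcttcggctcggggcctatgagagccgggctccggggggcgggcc
FNIP2: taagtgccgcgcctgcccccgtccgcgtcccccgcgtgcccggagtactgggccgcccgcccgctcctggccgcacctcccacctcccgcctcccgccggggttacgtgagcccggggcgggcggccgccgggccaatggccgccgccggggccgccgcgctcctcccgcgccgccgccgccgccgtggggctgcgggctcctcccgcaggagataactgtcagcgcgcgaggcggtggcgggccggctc

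Over 21448 transcript probe sets the correlation between arrays of a group was 0.991 to 0.994, and between groups at most 0.987. Each array's limit was set at the 95th percentile of its 612 negative controls (7.14 to 7.65 on the log2 scale), and 38.4% to 42.1% of the transcript probe sets lay above it. FNIP1, RRAGC, TFE3, MITF and SESN2 lay above it on all 6 arrays. FNIP2 lay above it on the 2 EGF plus gefitinib arrays only, and FLCN, RRAGD, TFEB and CASTOR1 on none. The epithelial markers fitted the line, with 7 of 7 measured keratinocyte and epithelial markers above the limit on all 6 arrays. Of the melanocyte markers, 3 of 3 measured (MLANA, PMEL and TYR) were above it on none, as were 3 of 3 leukocyte, 3 of 5 fibroblast and 2 of 3 endothelial markers. The fibroblast proteoglycan LUM was above the limit on all 6 arrays. In a bulk sample, fewer cells of a type and less RNA per cell cannot be told apart.

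**Figure D1:**
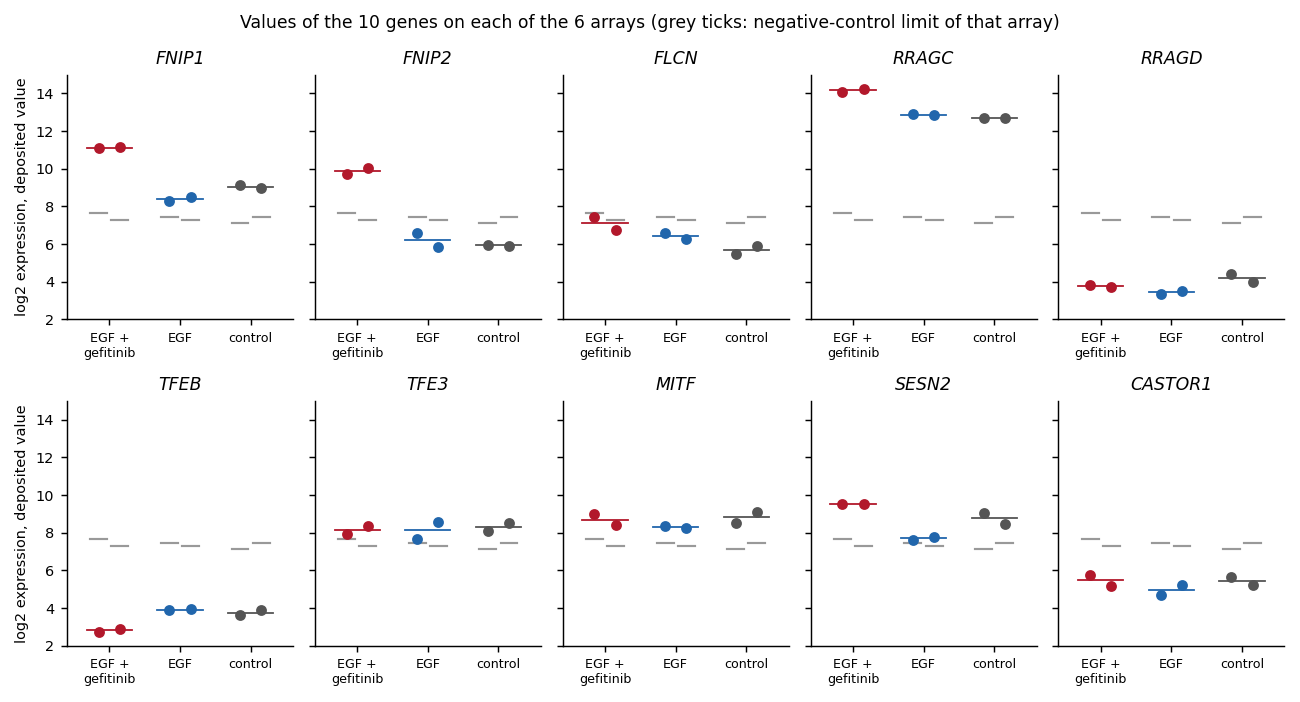
Log2 value of each of the 10 genes (vertical axis) on every array, with EGF plus gefitinib (red), EGF (blue) and control (dark grey) from left to right; the coloured bar is the mean of the 2 arrays and the grey tick is that array's negative-control limit. FNIP1, FNIP2 and RRAGC stand higher on both EGF plus gefitinib arrays than on the other 4 arrays, while FLCN, RRAGD, TFEB and CASTOR1 stay below the grey ticks on all 6.

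Among folliculin's partners, FNIP1 and FNIP2 were both far higher with EGF plus gefitinib than in either other group. FNIP1, which links folliculin to AMP-activated kinase and to the Rag GTPases, measured 11.08 and 11.13 on the EGF plus gefitinib arrays, 8.26 and 8.47 on the EGF arrays, and 9.12 and 8.96 on the control arrays. The 3 groups did not overlap, with EGF plus gefitinib highest and EGF lowest. EGF plus gefitinib exceeded EGF 6.66-fold, a log2 difference of 2.73 ± 0.18 (SE, limma, adjusted p = 0.000313). It exceeded control 4.18-fold, by 2.06 ± 0.18 (adjusted p = 0.0069). Between EGF and control the difference was −0.67 ± 0.18 and was not called (adjusted p = 0.0556).

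FNIP2, the paralog of FNIP1, measured 9.72 and 10.01 on the EGF plus gefitinib arrays, 6.61 and 5.87 on the EGF arrays, and 5.95 and 5.89 on the control arrays. Both lower groups lay within the negative-control range, so only a bound can be given for the rise. EGF plus gefitinib was at least 5.61-fold higher than EGF (fitted log2 difference 3.63 ± 0.27, adjusted p = 0.000464) and at least 5.95-fold higher than control (fitted 3.94 ± 0.27, adjusted p = 0.00618). No probe set on the array had a larger fitted rise over control than FNIP2, but since the fitted size of a gene rising out of the negative-control range is uncertain, its true place is not known. FNIP1 had 34 of the 21448 probe sets above it in the same ranking. EGF and control overlapped for FNIP2 (0.31 ± 0.27, adjusted p = 0.525).

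FLCN, the gene of folliculin itself, measured 7.44 and 6.75 on the EGF plus gefitinib arrays, 6.57 and 6.25 on the EGF arrays, and 5.45 and 5.90 on the control arrays. The groups stood in that order without overlap, but every value lay at or below its array's limit, so no fold is given. The fitted difference of EGF plus gefitinib from control was 1.43 ± 0.29 (limma adjusted p = 0.0438). That call was lost without any 1 of the 4 arrays compared (differences 1.08 to 1.77). It was also lost with only those 4 arrays (adjusted p = 0.0761), the same fit as without 1 EGF array. The differences of EGF plus gefitinib from EGF (0.69 ± 0.29, adjusted p = 0.147) and of EGF from control (0.74 ± 0.29, adjusted p = 0.153) were not called.

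The Rag GTPases that folliculin acts on differed from each other in whether they could be measured. RRAGC measured 14.09 and 14.24 on the EGF plus gefitinib arrays, 12.89 and 12.86 on the EGF arrays, and 12.70 and 12.70 on the control arrays. It was far above the limit throughout, and both EGF plus gefitinib arrays stood clear of the other 4. EGF plus gefitinib exceeded EGF 2.45-fold (1.29 ± 0.17, adjusted p = 0.00292) and control 2.76-fold (1.47 ± 0.17, adjusted p = 0.0123). EGF and control differed by 0.17 ± 0.17 (adjusted p = 0.591). RRAGD, whose protein can take RagC's place in the heterodimer, measured 3.81 and 3.71 with EGF plus gefitinib, 3.37 and 3.52 with EGF, and 4.42 and 3.98 in the control. All 6 values were within the negative-control range, and the probe set was called in none of the 3 comparisons (limma adjusted p = 0.0618 to 0.369, with 1 of the 3, EGF against control, at an unadjusted p under 0.05).

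The transcription factors of this family did not show the rise seen for FNIP1, FNIP2 and RRAGC. TFE3 measured 7.91 and 8.33 on the EGF plus gefitinib arrays, 7.65 and 8.59 on the EGF arrays, and 8.08 and 8.49 on the control arrays. The groups overlapped in all 3 comparisons, and EGF plus gefitinib differed from EGF by 0.00 ± 0.33 (adjusted p = 0.997), an interval too wide to show equality. The sign of the TFE3 difference turned in each comparison when single arrays were left out (−0.46 to 0.47 for EGF plus gefitinib against EGF). MITF measured 8.99 and 8.40 with EGF plus gefitinib, 8.33 and 8.27 with EGF, and 8.53 and 9.10 in the control. Its differences were not called (0.40 ± 0.27, −0.12 ± 0.27 and −0.52 ± 0.27 for EGF plus gefitinib against EGF, EGF plus gefitinib against control and EGF against control; adjusted p = 0.379, 0.845 and 0.285). MITF is known to be transcribed from several promoters, and its probe set, annotated to 8 transcripts, cannot separate them.

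TFEB measured 2.74 and 2.91 on the EGF plus gefitinib arrays, 3.87 and 3.93 on the EGF arrays, and 3.63 and 3.89 on the control arrays. It was called lower with EGF plus gefitinib than with EGF (fitted log2 difference −1.08 ± 0.19, adjusted p = 0.00791) and than in the control (−0.94 ± 0.19, adjusted p = 0.043). All 6 values were far below the limits, within the negative-control range, so no fold is given and the size of the difference cannot be read as a change in TFEB RNA. The call against EGF was lost without EGF replicate 2 (difference −1.05). The call against control was lost without any 1 of the 4 arrays compared (differences −1.07 to −0.81). It was also lost with only those 4 arrays (limma adjusted p = 0.0865), the same fit as without 1 EGF array. EGF and control differed by 0.14 ± 0.19 (adjusted p = 0.69).

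Of the amino acid sensors, SESN2 was the member called for EGF against control. SESN2, which is also induced by stress through the transcription factor ATF4, measured 9.51 and 9.50 on the EGF plus gefitinib arrays, 7.59 and 7.80 on the EGF arrays, and 9.07 and 8.43 on the control arrays. The groups did not overlap, with EGF lowest and EGF plus gefitinib highest. EGF plus gefitinib exceeded EGF 3.52-fold (1.81 ± 0.24, adjusted p = 0.00304). EGF was 2.08-fold lower than control (−1.06 ± 0.24, limma adjusted p = 0.0327). That call was lost without control replicate 1, EGF replicate 1 or EGF replicate 2 (differences −1.16 to −0.74). It was also lost with only the 4 arrays compared (adjusted p = 0.0567), the same fit as without 1 EGF plus gefitinib array. With the replicate number as a block the call was lost too (adjusted p = 0.0522). The difference of EGF plus gefitinib from control, 0.75 ± 0.24, was not called (adjusted p = 0.133). It was called with the filter on dim probe sets (adjusted p = 0.033) and with trend and robust estimation (adjusted p = 0.0409). CASTOR1 measured 5.74 and 5.19 with EGF plus gefitinib, 4.71 and 5.23 with EGF, and 5.65 and 5.20 in the control. All of these were within the negative-control range and overlapped between the groups (adjusted p = 0.298 to 0.955).

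**Figure D2:**
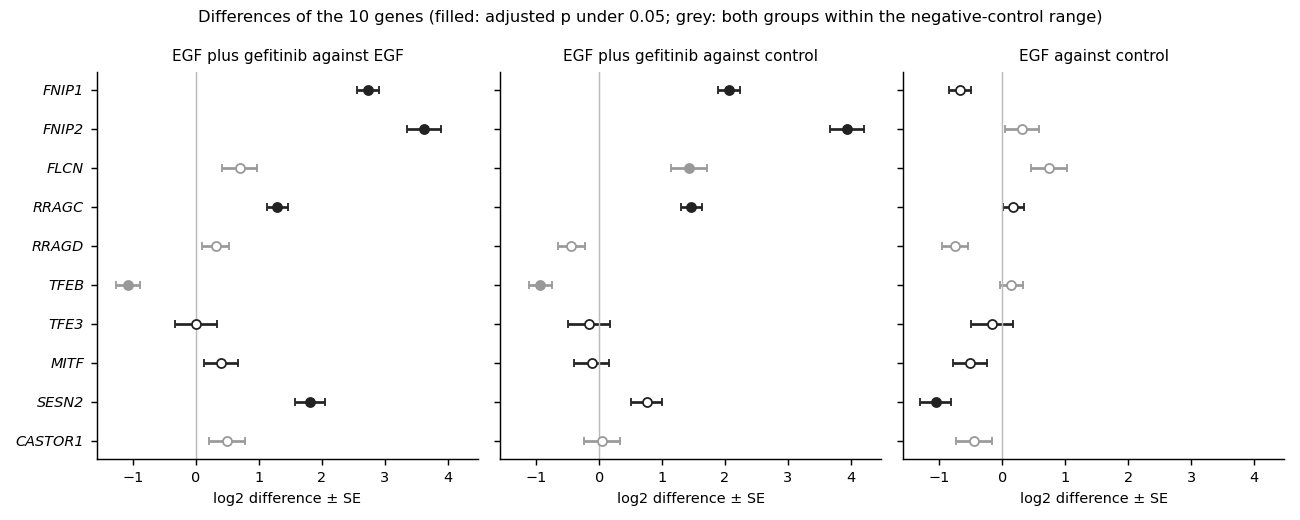
Log2 differences of the 10 genes with the standard error of the fit, in the 3 comparisons (EGF plus gefitinib minus EGF, EGF plus gefitinib minus control, EGF minus control); filled points had an adjusted p under 0.05 and grey points had both groups within the negative-control range. FNIP1, FNIP2 and RRAGC are filled and to the right in both comparisons with EGF plus gefitinib, SESN2 is filled to the right against EGF and, in the EGF against control panel, to the left, and no filled point among the 10 genes is to the right for EGF against control.

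Counted over the 10 genes, EGF plus gefitinib against EGF had 4 called higher (FNIP1, FNIP2, RRAGC and SESN2) and 1 called lower (TFEB). Over all probe sets 18.7% were called in that comparison, 8.86% higher and 9.81% lower. The median difference of the 10 was 0.59, against 0.05 over all probe sets. EGF plus gefitinib against control had 4 higher (FNIP1, FNIP2, FLCN and RRAGC) and 1 lower (TFEB), where 3.89% of all probe sets were called, 2.19% higher and 1.7% lower. The medians were 0.40 over the 10 and 0.01 over all. EGF against control had 0 higher and 1 lower (SESN2), where 11.9% of all probe sets were called, 6.61% higher and 5.3% lower. Of the 10, 4 had an unadjusted p under 0.05 in that limma comparison, and trend and robust estimation called 2, both lower. The medians were −0.31 over the 10 and −0.03 over all. Because the genes were proposed with these differences known, nothing is read from their counts against these shares. Any pair of these comparisons shares the arrays of 1 group.

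FNIP1, FNIP2, RRAGC and SESN2 kept their calls against EGF under all 13 other settings tried for their differences, with lowest to highest differences of 2.63 to 2.84 for FNIP1, 3.26 to 3.99 for FNIP2, 1.22 to 1.42 for RRAGC and 1.71 to 1.92 for SESN2. These settings were not independent, so their number is not a count of separate checks. Each of these genes had 1 probe set, so probe set averaging left its difference unchanged. Against EGF, leaving out 1 control array gave the same fit as the 4 arrays compared. FNIP2 passed the filter on dim probe sets only through its EGF plus gefitinib arrays. The calls against control were more fragile. FNIP1 lost its call without control replicate 1, control replicate 2 or EGF plus gefitinib replicate 2 (adjusted p = 0.0637 to 0.0694), RRAGC without those or EGF plus gefitinib replicate 1 (adjusted p = 0.0501 to 0.0927), and FNIP2 without control replicate 1 or EGF plus gefitinib replicate 2 (adjusted p = 0.0635 and 0.056). In those fits the differences stayed between 1.98 and 2.15 for FNIP1, 1.39 and 1.54 for RRAGC, and 3.79 and 3.97 for FNIP2. Few probe sets of any kind were then called: limma called 0 of 21448 without control replicate 1, 8 without control replicate 2 and 0 without EGF plus gefitinib replicate 2, with 3280, 3427 and 3810 at an unadjusted p under 0.05.

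The genes whose pattern over the 6 arrays was most like a member's were sought for the 3 members with the largest range of group means among those above the limit on both arrays of at least 1 group. FNIP2 met that rule through the EGF plus gefitinib arrays alone, so its range and distances rest on 4 arrays within the negative-control range. Likeness was the root mean square distance between log2 values after each gene's own mean was subtracted. FNIP1 was matched most closely by PCK2, the mitochondrial phosphoenolpyruvate carboxykinase (distance 0.106), MBP (0.169), AHNAK2 (0.184), CABLES1 (0.193) and ASNS, asparagine synthetase (0.204). PCK2, for example, averaged 8.81 with EGF plus gefitinib, 6.19 with EGF and 6.87 in the control, and like MBP it lay above the limit on the 2 EGF plus gefitinib arrays only. SESN2 was matched by VIPR1 (0.0544), HERC5 (0.134), POLI (0.14), GPER1 (0.151) and CYB561A3 (0.157). Of these, GPER1 was above the limit on 0 arrays, VIPR1 on 3 and POLI on 4. The EGF means of VIPR1 (5.90) and POLI (6.50) lay within the negative-control range. FNIP2 had looser matches, in CHAC1 (0.603), F2R (0.633), AHNAK2 (0.665), HSPB8 (0.699) and DDIT3 (0.741), of which CHAC1, F2R and DDIT3 were, like FNIP2, above the limit on 2 arrays only. The values were not scaled, so the distance also grows with the size of a gene's differences. No probe set had a larger fitted rise over control than FNIP2 (3.94), and these 5 genes rose by 2.50 to 2.82. The larger distances are therefore not a separate trait of its pattern. The distances are descriptions over 6 arrays and say nothing of shared function or control.

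**Figure D3:**
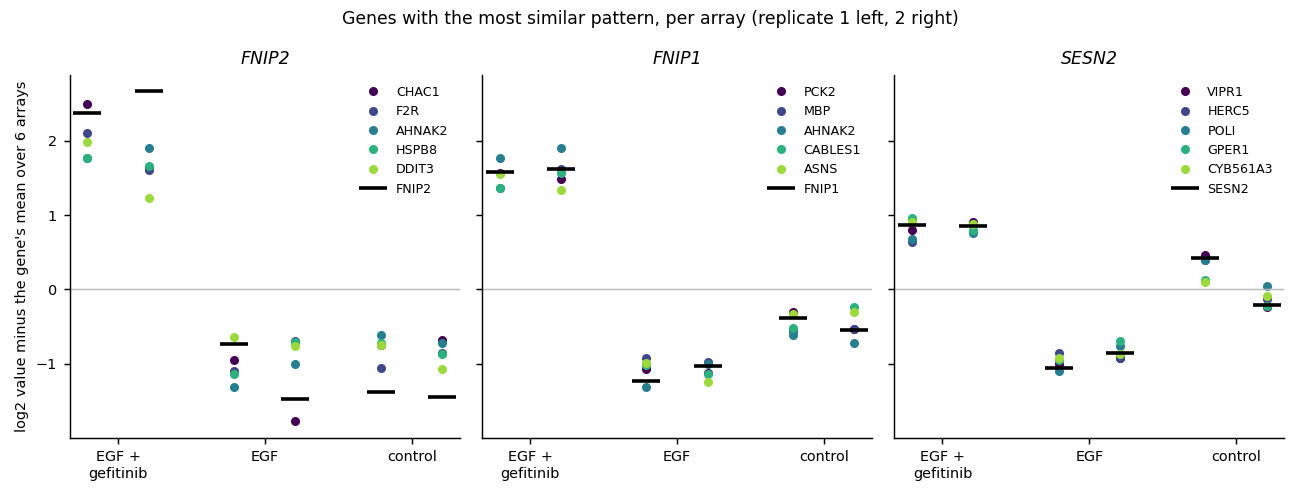
Log2 value minus the gene's mean over the 6 arrays (vertical axis) for FNIP2, FNIP1 and SESN2 (black bars) and the 5 genes nearest to each (coloured points), by array, with EGF plus gefitinib, EGF and control from left to right. The points lie close to the bars of FNIP1 and SESN2 and farther from those of FNIP2, whose nearest gene CHAC1 is at a distance of 0.603. The values are not scaled, so the distance also grows with the size of a gene's differences.

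The rest of the amino acid branch that feeds the Rag GTPases showed no common direction. Lists of these genes were written from general knowledge with earlier results of these data known, and the members were left out of them. The other Rag GTPases, the Ragulator subunits and the arginine transporter SLC38A9 had 0 of 7 measured genes called in any comparison. Their median difference was −0.13 for EGF plus gefitinib against EGF, against 0.05 over all probe sets. Over all probe sets 18.7% were called for EGF plus gefitinib against EGF. The shares were 3.89% for EGF plus gefitinib against control and 11.9% for EGF against control. Of 11 genes of GATOR1, GATOR2 and KICSTOR, 2 were higher and 3 lower with EGF plus gefitinib than with EGF, where 8.86% of all probe sets were higher and 9.81% lower. SEH1L, a GATOR2 subunit that also serves in the nuclear pore, averaged 10.35 ± 0.09 with EGF plus gefitinib and 11.68 ± 0.14 with EGF (SD, n = 2), a difference of −1.33 ± 0.18 (adjusted p = 0.00337). DEPDC5, the GATOR1 subunit, differed by 1.11 ± 0.25 (adjusted p = 0.023) with EGF within the negative-control range, at least 1.04-fold higher, and SEC13, a GATOR2 subunit, by −0.71 ± 0.17 (adjusted p = 0.0254). Without EGF replicate 1 or 2, or EGF plus gefitinib replicate 1 or 2, SEH1L alone of this list was called. EGF plus gefitinib against control had 1 called lower (KPTN, of KICSTOR, above the limit on no array of either group and not called in any of the 6 fits without 1 array), and EGF against control 1 higher (SEH1L, 0.95 ± 0.18, adjusted p = 0.0188, not called without either control or either EGF array).

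Among the other sensors, CASTOR2, the paralog of CASTOR1, followed the same order of groups as SESN2 in 2 of the comparisons. It averaged 9.95 ± 0.03 with EGF plus gefitinib, 8.33 ± 0.09 with EGF and 10.18 ± 0.01 in the control (SD, n = 2 each). It was 3.07-fold higher with EGF plus gefitinib than with EGF (1.62 ± 0.17, adjusted p = 0.00125) and 3.59-fold lower with EGF than in the control (−1.85 ± 0.17, adjusted p = 0.00159). Both calls held without any 1 of the 6 arrays. SESN1, another sestrin, was higher with EGF plus gefitinib than with EGF by 0.77 ± 0.20 (adjusted p = 0.0372), at least 1.15-fold, with 5 of the 6 fits that leave out 1 array losing the call (adjusted p up to 0.19). Of 5 such sensors, 2 were higher against EGF, 0 were called against control, and 1 was lower for EGF against control. Over all probe sets the shares in these comparisons were 8.86% higher, 3.89% called and 5.3% lower. In mTORC1, RHEB and the TSC complex, 2 of 10 were higher against EGF, where 8.86% of all probe sets were (TSC1 by 0.79 ± 0.18 and the mTORC1 inhibitor DDIT4 by 0.71 ± 0.18; adjusted p = 0.0213 and 0.0331). TSC1 lost its call in 3 and DDIT4 in 5 of the 6 fits without 1 array. DDIT4 was also higher against control (1.78 ± 0.18, adjusted p = 0.0091) and for EGF against control (1.08 ± 0.18, adjusted p = 0.0116), calls that were lost in 3 and 4 of those 6 fits.

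Lysosomal and autophagy genes reported as targets of TFEB and its relatives (the CLEAR network) included GABARAPL1, GPNMB and SQSTM1, which were higher with EGF plus gefitinib than with EGF. Of 31 measured, 11 were higher (35.5%, against 8.86% of all probe sets) and 3 lower (9.68%, against 9.81%) in that comparison. The median was 0.44, against 0.05 over all probe sets. Of the 31, 25 lay above the limit on both arrays of a compared group. The main fit called 18.7% of all probe sets. A separate fit of only the 9003 above the limit in a group called 54.4%, 2283 higher and 2611 lower. That fit had its own estimate of the spread and its own adjustment. Its share is therefore not a like background for the list's counts, which are from the main fit. GABARAPL1, an autophagy protein of the ATG8 family, averaged 10.63 ± 0.01 with EGF plus gefitinib and 7.54 ± 0.36 with EGF (SD, n = 2), an 8.54-fold rise, with 1 of the 2 EGF arrays below the limit. GPNMB, a lysosomal membrane glycoprotein, rose 7.24-fold (2.86 ± 0.22, adjusted p = 0.000524) and SQSTM1, an autophagy receptor, 2.86-fold (1.52 ± 0.19, adjusted p = 0.00248). The hydrolases CTSL and GLA and the proton pump subunit ATP6V0D1 were lower (−0.71, −0.66 and −0.68), calls that CTSL lost in 5 and GLA and ATP6V0D1 in 6 of the 6 fits without 1 array. Among the called genes ATP6V0D2 and CTSF were above the limit on no array of either group. Without EGF replicate 1 or 2, or EGF plus gefitinib replicate 2, 5 were called higher, and GABARAPL1, GPNMB and SQSTM1 were called in every fit without 1 array. Against control 4 were higher and 0 lower, where 2.19% of all probe sets were higher and 1.7% lower. For EGF against control, described below, those shares were 6.61% and 5.3%. Among the 4 higher against control were GPNMB (1.57 ± 0.22, limma adjusted p = 0.0175) and MAP1LC3B (0.996 ± 0.176, adjusted p = 0.0328). Without either control array or either EGF plus gefitinib array limma called 0 of these against control, with 9 to 11 of the list at an unadjusted p under 0.05. For EGF against control 1 was higher and 4 were lower, and without either control or either EGF array 1 was called lower, GABARAPL1 (−2.40 ± 0.21, adjusted p = 0.00142).

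The last list held ATF4, a transcription factor of the response to amino acid shortage, and 9 genes known as its targets. Of these 10 genes 8 were higher with EGF plus gefitinib than with EGF, ATF4 itself among them (1.51), and 0 were lower, with a median of 2.08. The shares over all probe sets were 8.86% higher and 9.81% lower. All 10 genes lay above the limit on both arrays of a compared group. The separate fit of only the 9003 probe sets above the limit in a group called 54.4%, 2283 higher and 2611 lower, and again is not a like background for counts from the main fit. In the list, TRIB3 (0.64, limma adjusted p = 0.0796) and CEBPB (0.24, adjusted p = 0.649) were not called. ASNS averaged 13.56 ± 0.15 with EGF plus gefitinib and 10.99 ± 0.17 with EGF (SD, n = 2), a 5.90-fold difference (2.56 ± 0.19, adjusted p = 0.000447). PSAT1, an enzyme of serine synthesis, was 4.73-fold higher (2.24 ± 0.20, adjusted p = 0.000809), and CHAC1, which degrades glutathione, at least 4.17-fold (fitted 3.44 ± 0.35, adjusted p = 0.0012). Against control, where 2.19% of all probe sets were higher, 8 of the 10 were. These were not the same 8 as against EGF, since TRIB3 was called against control only. Among them ASNS differed by 1.76 ± 0.19 (adjusted p = 0.00963) and TRIB3, a pseudokinase, by 2.19 ± 0.21 (adjusted p = 0.00826). Without control replicate 1, control replicate 2 or EGF plus gefitinib replicate 2 limma called 0 of these against control, with 9 of the 10 at an unadjusted p under 0.05 in each fit, and without EGF plus gefitinib replicate 1 it called 2. For EGF against control 6.61% of all probe sets were higher and 5.3% lower. In the list 1 was higher, TRIB3 (1.55 ± 0.21, limma adjusted p = 0.00552). The 3 lower genes included PSAT1 (−1.06 ± 0.20, adjusted p = 0.0187) and SLC7A11 (at least 2.56-fold lower). Without either control or either EGF array 0 to 1 of them were called lower, and TRIB3 stayed higher.

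**Figure D4:**
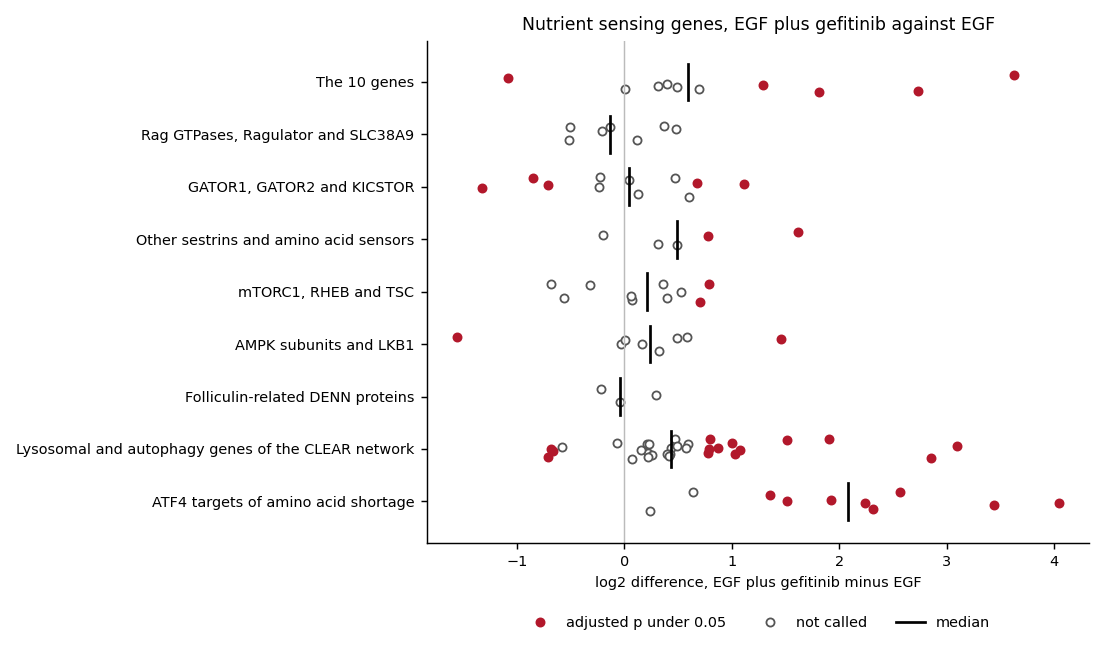
Log2 difference of EGF plus gefitinib minus EGF (horizontal axis) for the 10 genes and for each wider list, with red points at an adjusted p under 0.05, open points not called, and a black bar at the median. The medians run from −0.13 for the Rag and Ragulator list to 2.08 for ATF4 and its targets, and the 10 genes spread from −1.08 (TFEB) to 3.63 (FNIP2).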

How the data were processed

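RNA of A431 cells was measured on 6 arrays, 1 per sample and 2 per group. Total RNA was labelled with biotin using the Affymetrix WT PLUS kit, per the labels' protocols. The authors used Transcriptome Analysis Console, as the submitters' processing notes name it without a version. No source used here states its background correction or normalization. The deposited values are taken as log2 from their range, and they entered the tests as deposited.

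The table held 24351 probe sets, of which 2903 were controls (612 negative) and 21448 transcript probe sets. The platform annotation names 1 gene for 17709 of these, several for 0 and does not list 3739. All 21448 entered limma 3.58.1 (lmFit and eBayes, R 4.3.3) with no filter, in 1 fit of 3 group means with 3 residual degrees of freedom and 4.22 from the prior. All tests were two-sided, with Benjamini-Hochberg adjustment over all probe sets and calls at an adjusted p under 0.05. The fit was also run on simulated data with large planted differences and with spreads shuffled between probe sets. That run checks the code and says nothing of calls on smaller differences or dim probe sets. Where both arrays of 1 group were at or below the negative-control limit, a fold is the brighter mean over the other group's mean limit and is written "at least"; where both groups were, none is given. The number of arrays limits the precision, and an exact permutation test of 2 against 2 cannot go below p = 0.333.

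The members and lists were chosen with earlier results of these data known. The text names all 10 members and the 5 nearest genes of 3 members. Of each list and comparison it names up to 3 genes with the largest moderated statistic among called genes without overlap. CTSL, GLA, ATP6V0D1, ATP6V0D2, CTSF and further results of a gene already named were chosen after their values were seen. CEBPB is named as not called, and SLC38A9, STK11, C9orf72, SMCR8 and WDR41 as contents of their lists. Of 92 list entries 85 had a probe set. Promoters are from RefSeq (GRCh38.p14); RRAGD had no entry, and protein sequences were not used here. Alternatives were a filter on dim probe sets, quantile normalization, median centring, and trend and robust estimation. Further ones were 2-group fits, a replicate block, a stricter threshold, probe set averaging and leaving out each array. Leaving out either array of the group not compared gives the same fit as the 2-group fit, so tallies over 6 fits repeat it. Same-numbered arrays did not deviate together (correlations −0.041, 0.0213 and −0.00354 over probe sets), so the arrays were not treated as paired.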

Additional observations from a re-analysis of the deposited data

How the results depend on the processing

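With 2 arrays a group, calls near the threshold depend on the setting. For EGF against control, 1 of the 10 members was called, 2 with the filter on dim probe sets, quantile normalization or trend and robust estimation (FNIP1 lower beside SESN2), 0 with the 4 arrays compared, the replicate block or an adjusted p under 0.01 (4 at an unadjusted p under 0.05 on all arrays), and 0 to 1 without single arrays. For EGF plus gefitinib against EGF, 5 were called and 4 to 5 under every alternative. For EGF plus gefitinib against control, 5 were called, 6 with trend and robust estimation (SESN2 gained), 4 with the filter (SESN2 gained, FLCN and TFEB not tested), 3 with the 4 arrays compared or the replicate block, 2 under 0.01, and 0 to 3 without single arrays. Of the 85 wider genes, 13, 33 and 14 were called in these comparisons. The filter tested 9003 probe sets and 6 of the 10 members. It called 31 of the wider genes for EGF against control and 29 for EGF plus gefitinib against control. Trend and robust estimation called 29 and 26, and the threshold of 0.01 called 3, 18 and 3. With the filter and with trend and robust estimation, calls rose over the whole array as well. In the same 2 comparisons the main fit called 11.9% and 3.89% of all probe sets. The filter called 44.3% and 29% of those it tested, and trend and robust estimation 19.8% and 12.9%. For EGF plus gefitinib against control, the 4 arrays compared gave 9 and the replicate block 8. Without single arrays the wider counts ran from 3 to 13, 17 to 27 and 0 to 9. Over all probe sets the counts were 2554 (726 to 4241 over the alternatives), 4005 (1830 to 5476) and 834 (0 to 2777).

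Signs turned only for differences that were not called. TFE3 against EGF was −0.070 with median centring. Leaving out single arrays gave, for EGF against control, −0.054 to 0.68 for FNIP2 and −0.63 to 0.30 for TFE3; for EGF plus gefitinib against EGF, −0.46 to 0.47 for TFE3; and against control, −0.37 to 0.045 for TFE3, −0.42 to 0.17 for MITF and −0.24 to 0.32 for CASTOR1. The causes were not tested. Signal over background limits FLCN, RRAGD, TFEB and CASTOR1, which no array measured above the limit.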

Other observations

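AMP-activated kinase, the energy sensor that FNIP1 binds, and the C9orf72 complex, whose C9orf72 and SMCR8 proteins are related to folliculin, belong to the same regulatory neighbourhood. The first list held 8 genes, the AMP-activated kinase subunits and STK11, which encodes the kinase LKB1 upstream of them. With EGF plus gefitinib 1 was higher and 1 lower than with EGF (12.5% each). Over all probe sets 8.86% were higher and 9.81% lower, so these counts are near the shares of the array. PRKAB2, a regulatory beta subunit, averaged 8.98 ± 0.38 with EGF plus gefitinib and 7.52 ± 0.10 with EGF (SD, n = 2), a 2.75-fold difference (limma, adjusted p = 0.00532). PRKAG2, a gamma subunit that binds AMP, averaged 10.21 ± 0.00 with EGF plus gefitinib, 11.76 ± 0.12 with EGF and 10.68 ± 0.19 in the control. It was 2.94-fold lower with EGF plus gefitinib than with EGF (−1.56 ± 0.18, adjusted p = 0.00197), and both of these calls held without any 1 of the 6 arrays. PRKAG2 was 2.13-fold higher with EGF than in the control (adjusted p = 0.0124), a call lost without control replicate 1, EGF replicate 1 or EGF replicate 2 (adjusted p up to 0.0858). None of the 8 was called for EGF plus gefitinib against control, where 3.89% of all probe sets were called. None of the 3 genes of the C9orf72 complex (C9orf72, SMCR8 and WDR41) was called in any comparison, with medians of −0.04, 0.23 and 0.44 for EGF plus gefitinib against EGF, EGF plus gefitinib against control and EGF against control.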
